A study of Mus musculus with 10 samples.

Results

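A sarcoma-derived cell line was compared with fat-derived mesenchymal cells that carry the same engineered deletions and were labelled non-tumorigenic. The comparison uses 4 of the 10 arrays of the series, 2 of the tumor line and 2 of the fat-derived cells, chosen by sample title, and reads 21568 autosomal genes of 22596 genes tested. Mesenchymal stem cells of FVB mice had been grown from adipose tissue (ASC) or bone marrow (BM-MSC). For both groups, cells of animals with loxP-flanked Rb and p53 alleles were driven toward bone for 10 days with a commercial osteogenic kit and were then exposed to an adenovirus carrying Cre under the CMV promoter, which is active in most cell types. The null ASC were such ASC. The tumor line was recovered ex vivo from a tumor that null BM-MSC of the same kind had formed under the skin of immunodeficient NSG mice, a host that lacks mature lymphocytes and keeps myeloid, endothelial and stromal cells. It is a single line, so its 2 arrays show the spread between cultures of 1 line and not between tumors. The other groups, 2 arrays each, were wild-type ASC and wild-type BM-MSC, without the deletions or the priming, and the primed null BM-MSC, labelled tumorigenic. Per the labels, cells were kept in the same growth medium at passages 2 to 5 and duplicates were independent cultures harvested in exponential growth. The series asks how the tissue of origin and the differentiation stage of the starting cell bear on sarcoma formation.

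RB holds E2F transcription factors in check and so restrains entry into S phase. p53 stops the cycle or triggers death after DNA damage. Loss of both is a frequent event in osteosarcoma and other sarcomas of mesenchymal origin. Mesenchymal stem cells are fibroblast-like precursors that can form bone, cartilage and fat, lay down collagen-rich matrix, carry smooth muscle actin fibres in culture and keep a HOX code that records the body site they came from. Cells also differ in the basal activity of the interferon pathway, in which STAT and IRF factors bind interferon-stimulated response elements and turn on antiviral genes.

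Values are log2 signals minus the 75th percentile of their array, and differences are tumor line minus null ASC on that scale, so that 1 unit is a doubling. P-values come from limma, with a Benjamini-Hochberg adjustment that spans the 22596 genes, and a gene is called at an adjusted p under 0.05. A gene is dim where its probe is not well above background on either array of a group, and then only a lower bound of the fold is given. The share of spots well above background was 55.5% and 55.2% on the tumor line arrays and 54.5% and 55% on the null ASC arrays, within the 53.3% to 58.4% of all 10 arrays, and no spot was saturated. Duplicates correlated at r = 0.994 or more across genes in every group. The 2 tumor line arrays lay on a slide of their own and the other 8 arrays on 1 slide, so that slide and tumor line cannot be told apart in any difference below. Marrow origin, growth in a host, slide and the sex-linked transcripts given below all differ between the 2 groups at once.

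The targeted transcripts were checked first, as a description, because the groups were chosen for their loss. The Rb1 probe (mm9 chr14:73595408-73595467) gave -1.98 and -1.97 in the tumor line and -1.91 and -1.97 in null ASC, against means of 0.60 in null BM-MSC, 1.91 in wild-type BM-MSC and 1.31 in wild-type ASC. The Trp53 probe (mm9 chr11:69404204-69404263) gave -7.56 and -7.59 in the tumor line, not well above background, and -4.49 and -5.12 in null ASC, against means of -1.0, 0.77 and 1.06 in the same 3 groups. Whether either probe lies inside the deleted part was not determined here. Both groups were thus low for both transcripts, while the null BM-MSC cultures kept intermediate signals. Donor sex was read from 2 genes outside the autosomes. Xist, expressed from the inactive X of female cells, gave -1.37 and -1.62 in the tumor line and 4.55 and 4.42 in null ASC. The Y-linked Ddx3y was dim in the tumor line and gave -1.46 and -1.59 in null ASC. Null ASC thus held transcripts of both sexes and the tumor line had little of either. Null BM-MSC had means of -4.37 for Xist and 1.95 for Ddx3y, so the tumor line did not match them in either transcript. Sex chromosomes were left out of all counts.

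The tumor line and null ASC differed over most of the transcriptome. Of the 21568 autosomal genes, 6699 (31.1%) were higher and 7649 (35.5%) were lower in the tumor line, 66.5% in all, and at an unadjusted p under 0.05 the count was 14996. Differences of at least 2-fold were called in 2777 genes (12.9%) that were higher and 3026 (14%) that were lower. The median difference over all genes was -0.09 and the median SE 0.0939. The 2 pairs of arrays did not overlap in 83.3% of genes, with the tumor line above in 37.9% and below in 45.3%. A gene list is therefore read below against these shares and not against 0. With the background modelled by normexp, 3594 genes in place of 5803 were called with at least a 2-fold difference, and 3718 when a gene had to be well above background on each of the 10 arrays.

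The wild-type cells show how much of this lies between marrow and fat cells without the deletions, priming or tumor passage, since they share no array with the main comparison. In the wild-type pair, 5529 genes (25.6%) were higher and 6178 (28.6%) lower in marrow than in fat cells. Of the genes higher in the tumor line, 3007 (44.9%) were also higher in wild-type BM-MSC, where they make up 54.4% of the calls, while 1473 (22%) were lower there and 2219 (33.1%) were not called. Of the genes lower in the tumor line, 3363 (44%) were also lower in wild-type BM-MSC, 54.4% of the calls there, 1377 (18%) were higher and 2909 (38%) were not called. Across genes, which are not independent replicates, the differences correlated at a Pearson r of 0.457 and a Spearman rank correlation of 0.314. The differences themselves were also contrasted, as tumor line minus null ASC less the wild-type marrow minus fat difference. This contrast was called in 12311 genes (57.1%), 6134 of them higher (28.4%) and 6177 lower (28.6%). Of the genes called between the tumor line and null ASC, 9088 (63.3%) also had this contrast called on the same side. The contrast contains the tumor line minus null ASC difference that was used to call these genes. Part of the agreement in side is thus built in, and the share is a description only.

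Array by array, the genes with 2-fold calls fell into overlapping patterns. Both tumor line arrays lay above all 8 other arrays in 2118 of the 2777 genes higher in the tumor line (76.3%, against 23.6% of all genes) and below all of them in 2071 of the 3026 that were lower (68.4%, against 26.4%). The 4 ASC arrays, wild-type and null, lay beyond all 6 arrays of marrow origin in 1130 of the higher genes (40.7%, against 10.1%) and 1304 of the lower ones (43.1%, against 12.3%). Null ASC alone lay beyond all 8 others in 699 (25.2%, against 8.04%) and 909 (30%, against 9.87%). The shares among 2-fold calls are descriptions, since a call requires the groups to lie apart.

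Among genes measured well above background in both groups, the largest excess in the tumor line was that of Crabp1, which encodes a retinoic acid binding protein. Crabp1 gave 6.73 and 6.70 in the tumor line and -2.53 and -3.11 in null ASC, a difference of 9.53 ± 0.20 (SE, adjusted p = 1.73e-07), with 1.77 in null BM-MSC and -0.16 in wild-type BM-MSC. Acan, the large proteoglycan of cartilage, gave 4.77 and 4.76 against -4.47 and -4.37, and lay at or below -4.90 on all 6 other arrays. Its difference was 9.18 ± 0.16 (adjusted p = 1.03e-07). Spp1, the bone matrix protein osteopontin, gave 7.0 and 7.07 against -2.35 and -1.55 (8.99 ± 0.24, adjusted p = 4.50e-07), and was also high in both other marrow groups at 3.66 and 4.21, the null and the wild-type mean. The other 9 of the 12 largest were Ngef, a guanine nucleotide exchange factor (8.59 ± 0.09), Sema7a, a membrane-anchored semaphorin (8.28 ± 0.10), Edil3, an integrin-binding matrix protein (7.77), Igfbp2, which binds insulin-like growth factors (7.51), Arhgap22, a Rac inactivator (7.11), the uridine phosphorylase Upp1 (7.05), Atp9a (6.98), the bone morphogenetic protein Bmp2 (6.90) and the kinase Camk1d (6.83). Other probes gave smaller differences for Atp9a (1.62), Camk1d (3.83), Upp1 (4.47) and Edil3 (5.37), and a larger one for Igfbp2 (9.25).

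The largest deficits were of genes with high signals in null ASC, which the ranking favours, and several were also high in the other marrow groups. Ptgis, the prostacyclin synthase, gave -4.14 and -4.59 in the tumor line and 7.16 and 7.20 in null ASC (-11.54 ± 0.14, adjusted p = 3.12e-08), while another of its probes gave a difference of -2.04. The Ptgis means were 5.60 in null BM-MSC and 3.76 in wild-type BM-MSC. Aldh1a1, which makes retinoic acid, gave -3.93 and -4.31 against 7.13 and 7.12 (-11.25 ± 0.23, adjusted p = 1.74e-07). Its means of -1.94 in null BM-MSC and -1.43 in wild-type BM-MSC, against 8.40 in wild-type ASC, show that Aldh1a1 separated all fat from all marrow cultures. Cck, the cholecystokinin precursor (-9.97), and Plac8 (-9.08) had the same pattern. Gas6, the ligand of the TAM receptor kinases, had another: it gave -1.90 and -1.81 in the tumor line, 6.53 and 6.57 in null ASC, and means of 7.27 in null BM-MSC, 7.32 in wild-type BM-MSC and 6.80 in wild-type ASC, so that the tumor line alone was low (-8.41 ± 0.05, adjusted p = 3.31e-09). Igf1, an insulin-like growth factor, gave -3.76 and -3.89 against 4.90 and 5.08 (-8.82 ± 0.08), with 5 probes between -11.13 and -1.75. The Igf1 means were 2.72 in null BM-MSC and 2.93 in wild-type BM-MSC. The glutathione transferase Mgst1 was also low in the tumor line alone (-8.21). The rest of the 12 were the interferon-inducible Ifi27l2a (-7.84), Gvin1 (-7.79) and Oas1a (-7.53), the matrix protein Smoc2 (-7.68) and the neurotrophin receptor Ngfr (-7.44).

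**Figure D1:**
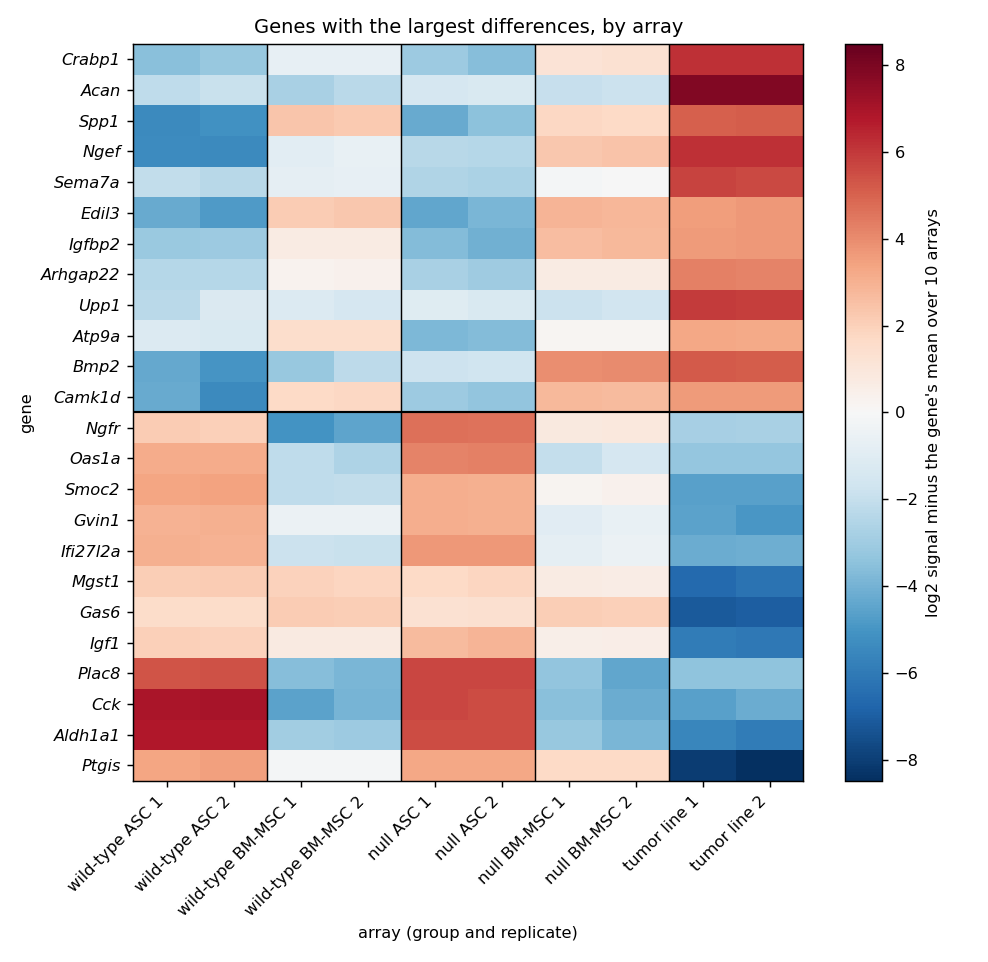
The 12 genes with the largest excess and the 12 with the largest deficit in the tumor line (rows) on all 10 arrays (columns, by group and replicate). Colour is the log2 signal minus the mean of that gene over the 10 arrays. Acan and Upp1 are high on the tumor line arrays only, Aldh1a1, Cck and Plac8 separate the 4 fat arrays from the 6 arrays of marrow origin, and Gas6 and Mgst1 are low on the tumor line arrays only.

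A further 867 genes (4.02%) were well above background on both tumor line arrays and dim in null ASC, and 674 (3.12%) were the reverse. Rpl39l, a ribosomal protein paralog, was at least 2243-fold higher in the tumor line, the water channel Aqp1 at least 792-fold, the hindlimb factor Pitx1 at least 743-fold, the Wnt enhancer Rspo1 at least 651-fold, the transcription cofactor Eya2 at least 572-fold, the inflammatory caspase Casp1 at least 326-fold, the adaptor Fyb at least 226-fold and Sobp at least 206-fold. Rpl39l, Pitx1, Eya2, Casp1 and Sobp had means of 3.02 or more in both null and wild-type BM-MSC. Aqp1 (2.93 and -0.08), Rspo1 (0.22 and -5.64) and Fyb (-4.06 and -4.94) did not. In the other direction, the protease inhibitor genes Ctla2a and Ctla2b were at least 17808-fold and 8381-fold lower; they are close paralogs whose probes may share signal. The chaperone Hspb8 was at least 712-fold lower and stood at 3.81 in null BM-MSC and 3.43 in wild-type BM-MSC. Frmd3 (at least 798-fold lower), the Wnt antagonist Frzb (at least 691-fold), the progesterone receptor Pgr (at least 548-fold) and Pdlim3 (at least 499-fold) had means of -5.46 or lower in all marrow groups. The antiviral enzyme gene Oas2 was at least 518-fold lower.

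Interferon response genes were the list with the highest share of lower calls. Of 40 measured members, 34 (85%) were lower and 1 (2.5%) was higher in the tumor line, against 35.5% and 31.1% of all genes, and the median difference was -2.42. The steepest were Oas2 and Oas1a, which sense viral RNA, then Ifit3, Rsad2 and Mx2, which block viral replication. Ifit3 gave 0.25 and 0.36 in the tumor line and 5.87 and 5.74 in null ASC (-5.50 ± 0.17, adjusted p = 7.29e-07). Mx2 gave -1.43 and -1.29 against 3.60 and 3.44 (-4.88 ± 0.23), and Rsad2 -3.45 and -3.31 against 1.63 and 1.49 (-4.94 ± 0.58). For these genes the lowest null ASC array was over 4 units above the highest tumor line array. Irf1, an activator of the pathway, was the 1 member called higher, by 0.24 ± 0.04 (adjusted p = 0.00244). When all its probes, dim ones included, were averaged, Irf1 gave -0.50 and was not called (adjusted p = 0.194). The 5 members not called were Cxcl9, Gbp2, Gbp5, Gbp7 and H2-D1, named here because they are the remainder; Cxcl9 (0.76) and Gbp5 (0.82) were called higher when probes were averaged. The list has 5 members on chromosome 3, described below: Gbp2, Gbp5 and Gbp7 were not called, while Ifi44 (-4.11) and Gbp3 (-1.58) were lower. In wild-type cells the same list had 34 members lower and 3 higher in marrow than in fat cells, with a median of -2.05. The summed signal of the list was 8.40 and 8.42 (log2) in the tumor line, 8.50 and 8.62 in null BM-MSC and 8.33 and 8.26 in wild-type BM-MSC, against 10.19 and 10.15 in null ASC and 9.83 and 9.84 in wild-type ASC. In this sum, which the brightest members dominate, the 4 fat arrays were thus above all 6 arrays of marrow origin. The tumor line sum lay within the marrow range. Single members could differ from the sum. Oas2 had means of -6.88 (dim) in the tumor line, -2.34 in null BM-MSC and -3.25 in wild-type BM-MSC. For Oas1a these means were -2.19, -0.60 and -1.27. Isg15, given below, was not lower in the tumor line than on both null BM-MSC arrays. How many members were lower than in marrow cells was not counted. In bulk cultures, fewer expressing cells and less RNA per cell cannot be told apart.

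**Figure D2:**
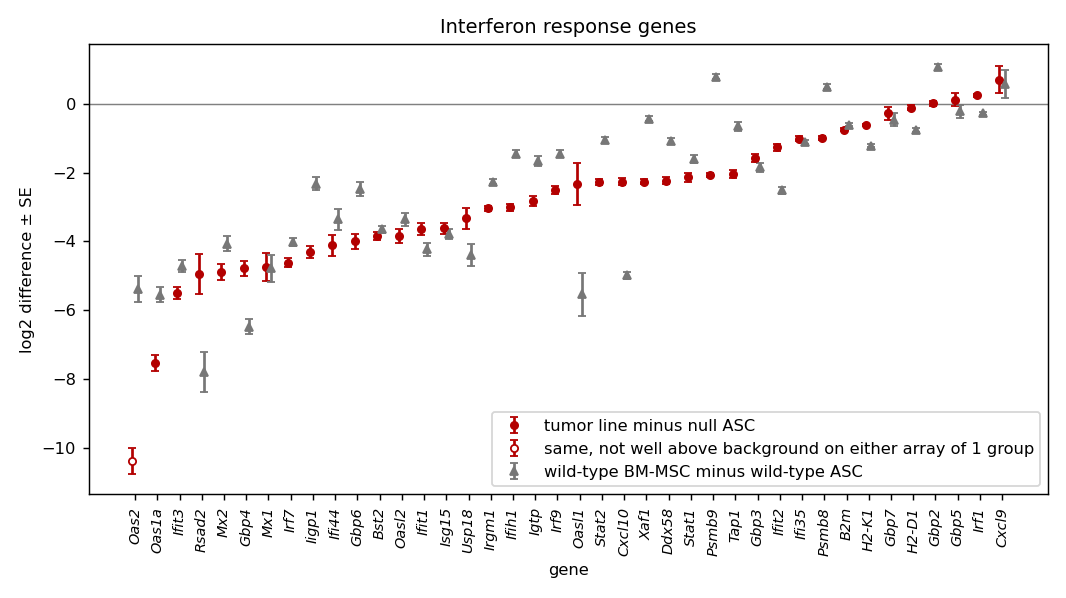
Log2 differences with their SE for the 40 interferon response genes in the tumor line against null ASC (red circles) and in wild-type BM-MSC against wild-type ASC (grey triangles). The open circle, Oas2, is dim in the tumor line, so its position is a fitted value and not a measured fold. All but 6 of the red circles are called lower, and most grey triangles lie below 0 as well.

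RefSeq promoter windows (GRCm38.p6, 250 bases before to 50 after the annotated start) were matched to 32 of the 40 genes by symbol. The core of the interferon-stimulated response element, read here as 2 copies of GAAA with any 2 bases between them on either strand, was in 17 of these 32 (53.1%), in 14 of the 26 matched genes that were lower (53.8%) and in 3 of the 6 that were not (50%). It was in 439 of 11905 matched genes among all autosomal genes tested (3.69%) and in 3.99% of all 27025 genes with a window. Matches can overlap one another, and a match is a description of the sequence and not a bound site. The windows of 2 of the steepest members, Oas1a and Ifit3, are shown with that of Isg15, whose 3 overlapping matches run together, and that of Gbp2, which holds the motif but was not called (0.01 ± 0.08); Isg15 and Gbp2 were picked after their values were seen. Each is written 5′ to 3′ along the gene, with the matched bases in capitals, and a run of TTTC marks a match on the opposite strand:
Oas1a (chr5:120907476-120907775, minus strand): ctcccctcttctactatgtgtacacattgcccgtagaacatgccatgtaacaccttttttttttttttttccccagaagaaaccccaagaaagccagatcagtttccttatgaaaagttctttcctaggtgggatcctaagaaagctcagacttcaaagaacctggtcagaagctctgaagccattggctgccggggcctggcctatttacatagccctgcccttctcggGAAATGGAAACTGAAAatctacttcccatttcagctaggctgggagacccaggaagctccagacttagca
Ifit3 (chr19:34583279-34583578, plus strand): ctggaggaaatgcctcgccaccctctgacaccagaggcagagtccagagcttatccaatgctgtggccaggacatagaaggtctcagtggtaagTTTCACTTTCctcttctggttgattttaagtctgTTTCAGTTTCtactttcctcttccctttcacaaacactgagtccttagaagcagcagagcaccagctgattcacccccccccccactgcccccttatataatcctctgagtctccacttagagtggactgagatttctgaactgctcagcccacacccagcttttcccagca
Isg15 (chr4:156200769-156201068, minus strand): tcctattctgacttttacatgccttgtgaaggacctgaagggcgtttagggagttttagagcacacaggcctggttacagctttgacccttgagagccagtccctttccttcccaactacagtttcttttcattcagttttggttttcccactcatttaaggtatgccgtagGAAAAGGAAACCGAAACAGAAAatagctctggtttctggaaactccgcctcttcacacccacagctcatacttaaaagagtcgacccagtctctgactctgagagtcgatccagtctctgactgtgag
Gbp2 (chr3:142620413-142620712, plus strand): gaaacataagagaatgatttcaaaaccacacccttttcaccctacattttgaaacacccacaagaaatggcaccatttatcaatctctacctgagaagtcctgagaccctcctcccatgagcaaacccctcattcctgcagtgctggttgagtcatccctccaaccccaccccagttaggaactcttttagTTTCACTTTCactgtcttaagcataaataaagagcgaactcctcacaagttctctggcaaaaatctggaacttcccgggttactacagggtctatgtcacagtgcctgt

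Isg15, a ubiquitin-like antiviral protein, gave 4.27 and 4.26 in the tumor line and 7.93 and 7.84 in null ASC (-3.62 ± 0.15), and null BM-MSC gave 4.17 and 4.64, on both sides of the tumor line values. Gbp2, a guanylate-binding protein, gave 3.54 and 3.64 against 3.61 and 3.55.

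Complement and acute phase genes followed with 13 of 16 lower (81.2%) and 1 higher, and a median of -4.35 (-3.52 with dim signals set to the lowest detected level, -2.80 without the filter and -1.93 with normexp). Serping1, the C1 inhibitor, gave -2.05 and -2.17 against 4.02 and 4.07 (-6.16 ± 0.10, adjusted p = 6.98e-08). The components C4b (-5.80), C3 (-5.62) and C2 (-5.18) were lower, as was Saa3, an acute phase apolipoprotein, by at least 282-fold. Cp, the copper carrier ceruloplasmin, was higher (4.10 ± 0.09), and lies on chromosome 3. In wild-type cells 9 members were lower and 4 higher in marrow cells, with a median of -0.23, and Serping1 and C2 were at 3.81 or above on every non-tumor array. The list's summed signal was 4.22 and 4.27 in the tumor line and between 7.16 and 9.24 on the other 8 arrays. Of 23 cytokines and chemokines 10 were higher and 10 lower (43.5% each, against 31.1% and 35.5% of all genes). The monocyte attractants Ccl2 (1.10 and 1.14 against 6.10 and 6.13, -4.99 ± 0.06) and Ccl7 (-4.93 ± 0.06) and the inflammatory cytokine Il6 (at least 23.1-fold) were lower. Cxcl14 (at least 10.6-fold), Cxcl5 (3.72), and the macrophage growth factor Csf1 (2.54, with 4 probes between 0.54 and 4.23) were higher.

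Contractile genes of smooth muscle were low in the tumor line, the most abundant of them in that group alone. Of 15 members, 11 were lower (73.3%) and 2 higher, with a mean of -2.11 and a median of -0.82, which was -1.31 over members well above background on all 10 arrays. Tagln, an actin-binding protein of stress fibres, gave 2.58 and 2.50 in the tumor line and 8.43 and 8.37 in null ASC (-5.86 ± 0.09, adjusted p = 6.33e-08), and between 8.54 and 9.09 on the other 6 arrays. Acta2, smooth muscle actin, gave 3.36 and 3.41 against 8.53 and 8.47 (-5.12 ± 0.09, adjusted p = 9.01e-08). Myl9, the regulatory myosin light chain, gave 3.65 and 3.67 against 8.63 and 8.63 (-4.97 ± 0.06). The 8 non-tumor arrays thus formed 1 narrow band and the tumor line stood far below it. Actg2, enteric smooth muscle actin (-6.88), Cnn1, calponin (-4.18), the kinase Mylk (-2.08) and the myosin heavy chain Myh11 (-1.79) were lower too, whereas Synpo2 (0.77) and Smtn (0.37) were higher. The regulator Myocd was dim in null ASC and not called, and Notch3 was not called (0.20 ± 0.12), although it was without replicate 1 of null ASC (0.38, adjusted p = 0.00870). In wild-type cells 9 members were higher and 2 lower in marrow cells. The list's summed signal was 7.05 and 7.07 in the tumor line, against 10.27 to 11.25 on the other arrays.

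**Figure D3:**
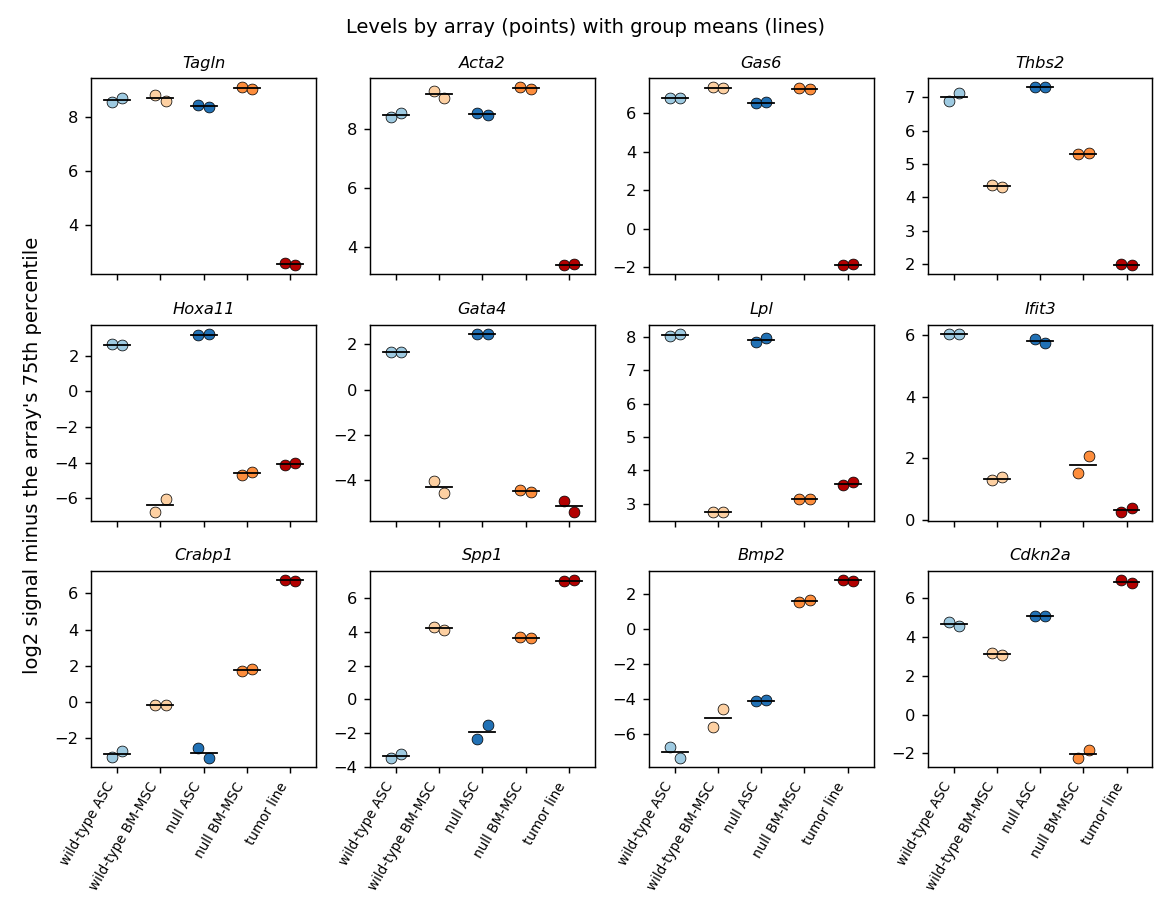
Log2 signal relative to the array's 75th percentile for 12 genes, with 1 point per array, a line at the mean of each group of 2, and a separate vertical scale for each gene. Tagln, Acta2 and Gas6 are low in the tumor line only, Hoxa11, Gata4, Lpl and Ifit3 are high in both fat groups, Spp1 is high in all 3 groups of marrow origin, and Bmp2 in null BM-MSC and the tumor line.

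Matrix genes were mostly lower in the tumor line. Of 22 collagens 15 were lower (68.2%) and 4 higher, with a median of -1.72. The basement membrane chains Col4a1 (0.90 and 0.94 against 5.12 and 5.05, -4.16 ± 0.06, adjusted p = 4.70e-08) and Col4a2 (-3.02 ± 0.07) led the list, followed by Col5a1 (-2.64), Col14a1 (-2.64) and Col3a1 (-2.16 ± 0.06). Col1a2, a chain of type I collagen, was not called (9.27 and 9.0 against 9.17 and 9.24, -0.07 ± 0.14), although it passed with quantile scaling and with the series matrix at -0.16 each, and Col1a1 was lower by a small amount (-0.47 ± 0.10). Col18a1, the source of endostatin, was higher (3.56 ± 0.04), as was the cartilage chain Col2a1, by at least 7.22-fold, although Col2a1 stood at 5.00 in null BM-MSC. Of 37 matrix glycoproteins and proteoglycans 23 were lower (62.2%) and 10 higher. The elastic fibre proteins Mfap5 (-2.38 and -2.38 against 3.79 and 3.81, -6.18 ± 0.05) and Mfap4 (-5.53 ± 0.12) and the thrombospondins Thbs2 (-5.32 ± 0.08) and Thbs1 (-4.62 ± 0.08) were lower, and Igfbp5 was at least 27-fold lower. Igfbp2 (7.51), Igfbp4 (3.38), Sparcl1 (3.23), the keratan sulphate proteoglycan Lum (3.16) and the collagen cross-linker Loxl3 (2.45) were the steepest in the other direction. Of 24 matrix proteases and inhibitors 17 were lower (70.8%) and 5 higher: the stromelysin Mmp3 was at least 25.2-fold lower, Mmp23 (-4.69) and the aggrecanase Adamts5 (-3.30) were lower, and the gelatinase Mmp9 was higher (1.22 and 1.29 against -1.70 and -1.60, 2.90 ± 0.20), with means of -5.39 and -5.05 in null and wild-type BM-MSC. In wild-type cells, these 3 lists had 9 higher and 8 lower, 20 and 13, and 7 and 12 in marrow cells.

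Among all members tested, Hox genes were more often lower and other positional factors more often higher in the tumor line. Wild-type marrow cells leaned the same ways against wild-type fat cells. Of 34 Hox genes 18 were lower (52.9%) and 8 higher in the tumor line, with a median of -0.87, and in wild-type cells 19 were lower and 8 higher in marrow cells, with a median of -0.98. Over Hox genes well above background on all 10 arrays, which are fewer, 8 were lower and the median was 0.09 in the tumor line comparison. The negative median thus did not hold for those genes. Hoxa11, a gene of the posterior code and the middle limb segment, gave -4.15 and -4.04 against 3.14 and 3.23 (-7.28 ± 0.22, adjusted p = 6.29e-07), with means of -4.60 in null BM-MSC, -6.40 in wild-type BM-MSC and 2.62 in wild-type ASC. Hoxd11 (at least 125-fold), Hoxb9 (at least 70.6-fold), Hoxb2 (at least 67.5-fold) and Hoxa13 (at least 5.68-fold) were lower. Hoxc5 and Hoxc9 were higher by 1.40 each and Hoxa7 by 1.37. Of 42 other limb and positional factors 21 were higher (50%) and 13 lower, with a median of 0.31 that was -0.05 without the filter. In wild-type cells 21 were higher and 13 lower in marrow cells, with a median of 0.37. The summed signal of these factors in the tumor line (7.53 and 7.5) was close to that of null ASC (7.47 and 7.51) and under that of null BM-MSC (8.22 and 8.19). Gata4, a regulator of mesoderm and heart, gave -4.92 and -5.42 against 2.46 and 2.47 (-7.64 ± 0.21), with 1 of the 2 tumor line arrays well above background, and stood at 1.65 in wild-type ASC but at -4.51 and -4.32 in the null and wild-type BM-MSC. Wt1, a factor of mesothelium and gonad (at least 181-fold), Foxf1, a factor of splanchnic mesoderm (at least 176-fold), and Hand2 (at least 32-fold) were also lower. Pitx1 and Eya2 were higher, as were the jaw and limb factors Pax9 (at least 31.8-fold) and Alx1 (at least 26.1-fold); Alx1 was low in every other group, with -7.55 in null BM-MSC and -7.80 in wild-type BM-MSC.

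Signalling ligands and their modulators were called in both directions within each pathway, as were all genes (31.1% higher and 35.5% lower). Of 38 Wnt pathway genes 20 were lower (52.6%) and 12 higher (31.6%), against 8 lower and 20 higher in wild-type marrow cells. The ligands Wnt10b (4.89 ± 0.12) and Wnt5b (4.55 ± 0.04), Dkk3 (4.19) and the nuclear factor Lef1 (3.42) were higher, and Rspo1, given above, was the steepest. The ligand Wnt4 (at least 76.1-fold), the feedback inhibitor Nkd1 (at least 18.4-fold), the R-spondin receptor Lgr6 (-5.22 ± 0.12) and the secreted antagonist Sfrp1 (-4.82 ± 0.09) were lower. Of 37 BMP and TGF-beta genes 14 were higher (37.8%) and 16 lower (43.2%). Bmp2 gave 2.80 and 2.78 against -4.15 and -4.07 (6.90 ± 0.34, adjusted p = 5.03e-06) and 1.59 in null BM-MSC, while both wild-type means were at -5.12 or below. Tgfbi, a TGF-beta induced matrix protein (4.54), Fst, the activin trap follistatin (4.43), and Ltbp2 (3.35) were higher. Gdf10 (at least 68.5-fold), the activin subunit Inhbb (-6.54), Gdf6 (at least 17.4-fold), the inhibitory Smad6 (-2.58) and the ligand Bmp4 (-2.41) were lower. Of 30 growth factor genes 14 were higher (46.7%) and 11 lower (36.7%). Hgf, the ligand of Met, gave 1.54 and 1.56 against -4.32 and -4.22 (5.82 ± 0.21), and its receptor Met was higher as well (0.62 and 0.53 against -2.14 and -2.15, 2.72 ± 0.06). Pdgfc (2.30), on chromosome 3, and the EGF receptor ligand Areg (at least 7.7-fold) were higher, whereas Igf1, Gas6, Fgf2 (at least 10.9-fold) and the receptor Egfr (-2.80 ± 0.06) were lower. Of 18 Notch and Hedgehog genes 10 were higher (55.6%) and 5 lower (27.8%). Among the higher were Notch4 (3.66), the Hedgehog effector Gli1 (2.18) and its targets Hhip (at least 4.08-fold) and Ptch1 (1.35 ± 0.18). The Hedgehog co-receptors Cdon (-4.14) and Boc (-2.61) were among the lower. The count of lower Notch and Hedgehog genes was 3 without replicate 2 of the tumor line and also 3 without replicate 2 of null ASC.

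Bone genes were called in both directions at shares near those of all genes. Of 34 osteogenic genes 12 were higher and 12 lower (35.3% each, against 31.1% and 35.5% of all genes, median -0.12), whereas in wild-type cells 23 were higher and 2 lower in marrow cells, with a median of 2.31. Besides Spp1 and Bmp2, Tnfrsf11b, the osteoclast inhibitor osteoprotegerin (3.45), and Enpp1, which makes pyrophosphate (3.41), were higher. Runx2, the master factor of the lineage, gave -1.35 and -1.10 against -2.72 and -2.32 (1.30 ± 0.16, adjusted p = 0.000404). The later factor Sp7 was dim in both groups and at 1.39 in null BM-MSC, and was not called except without replicate 1 of the tumor line (adjusted p = 0.00309). The mineralizing phosphatase Alpl was at least 3.2-fold lower and at 2.23 in null BM-MSC, and the bone sialoprotein gene Ibsp was at least 1.79-fold higher, with 5.69 in null BM-MSC, a call that was lost when any 1 of the 4 arrays was left out (adjusted p 0.0649 and 0.132 without a tumor line array, 0.0757 and 0.120 without a null ASC array). Sp7, Alpl and Ibsp thus had their highest signals in null BM-MSC and not in either group compared here. Of 16 chondrogenic genes 6 were higher and 7 lower, with a mean of 1.18 and a median of -0.40 that moved to -0.11 with normexp, -0.04 without the filter, -0.05 with probes averaged and -0.18 without replicate 2 of null ASC. Besides Acan, the link protein Hapln1 (at least 117-fold), the factor Sox9 (2.58 ± 0.07), Comp (1.75) and Matn4 (1.27, but 0.78 and not called with probes averaged) were higher, and Col11a2 (-2.03) and Col10a1 (at least 3.14-fold) were lower. Of 26 adipogenic genes 13 were higher (50%) and 5 lower. Lpl, the lipoprotein lipase, gave 3.57 and 3.64 against 7.84 and 7.97 (-4.31 ± 0.06, adjusted p = 4.45e-08) and 8.05 in wild-type ASC. Prdm16 (at least 9.19-fold) and Ucp1 (at least 5.39-fold) of thermogenic fat and the preadipocyte ligand Dlk1 (4.15) were higher. Pparg, the master factor of fat cells, was not called (0.13 ± 0.07), nor was Fabp4 (-0.28 ± 0.12). Adipoq, made by mature fat cells, was not well above background on both arrays of any group.

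Surface antigens used to define mesenchymal stem cells were found in both directions. Of 22 such genes 12 were higher (54.5%) and 5 lower (22.7%), against 31.1% and 35.5% of all genes. Eng, the TGF-beta co-receptor CD105, gave -2.17 and -2.07 in the tumor line against 3.58 and 3.56 (-5.69 ± 0.07, adjusted p = 3.50e-08), with means of 3.13, 2.98 and 4.30 in the other groups, so that the tumor line alone had little of it. Nt5e, the ectonucleotidase CD73, showed the reverse with 2.32 and 2.45 against -3.82 and -3.31 (5.95 ± 0.19). Cspg4, the pericyte proteoglycan NG2 (5.60), Alcam (4.48) and Cd34 (2.77) were higher. Ngfr, the niche chemokine Cxcl12 (-3.33) and Thy1 (-1.33) were lower, and Cd44 (0.09 ± 0.06) and Itgb1 (-0.16 ± 0.10) were not called.

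Cell cycle genes were shifted up by small amounts. Of 44 E2F targets and replication genes 27 were higher (61.4%) and 7 lower (15.9%), against 31.1% and 35.5% of all genes. Their median was 0.28. Of 31 mitotic genes 16 were higher (51.6%) and 6 lower (19.4%), with a median of 0.29. In wild-type cells 25 were higher and 5 lower, and 24 and 1, in marrow cells. Brca1 (1.58 ± 0.39, adjusted p = 0.0536 without replicate 2 of the tumor line), Ccna2 (1.32 ± 0.06), Rfc4 (1.09) and Prim1 (1.06) led the first list and Cenpe (1.98 ± 0.10), Ect2 (1.32), Top2a (1.28) and Kif18a (1.11) the second; Ccna2, Cenpe and Ect2 lie on chromosome 3. Ccne1 (-0.87), the replication clamp Pcna (-0.51) and the mitotic kinase Cdk1 (-1.54, with another probe at -0.31) were lower. Of 12 CDK inhibitors and D cyclins 5 were higher and 5 lower (41.7% each). Cdkn2a, the p16 and ARF locus, gave 6.94 and 6.77 against 5.10 and 5.11 (1.75 ± 0.15), with -2.04 in null BM-MSC. Cdkn2b beside it gave 5.21 and 5.22 against 2.38 and 2.35 (2.85 ± 0.04), with -3.70 in null BM-MSC. Both genes of this locus were thus at their lowest in null BM-MSC. Cdkn1c, an imprinted growth brake, was higher (4.50 and 4.47 against -0.48 and -0.77, 5.11 ± 0.15), as was Ccnd1 (3.66 ± 0.07). Of 32 p53 targets 13 were higher (40.6%) and 14 lower (43.8%), with a median of -0.04. Perp (4.50), Plk2 (2.33) and Gdf15 (1.97) were higher, Thbs1 (-4.62) and Btg2 (-2.02) were lower, and Cdkn1a, the p21 gene, was not called (0.20 ± 0.08, adjusted p = 0.0665, and 0.0265 without replicate 1 of null ASC), with 3 probes between -4.04 and 1.52.

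Smaller lists gave further members, to be read against the 31.1% higher and 35.5% lower of all genes. Of 21 imprinted growth genes 11 were lower (52.4%) and 8 higher (38.1%). Mest (at least 68.4-fold), Sgce (-6.26 ± 0.06), Peg3 (at least 17.6-fold), Grb10 (-4.85) and Peg10 (at least 9.79-fold) were lower. Besides Cdkn1c and Dlk1, Snrpn (3.32) and Meg3 (2.24) were higher. Of 25 hypoxia and glycolysis genes 10 were higher (40%) and 9 lower (36%). The higher were led by the oxygen sensor Egln3 (4.84) and the aldolase Aldoc (3.28) and included Vegfa (1.30). Of 19 AP-1 and Myc factors 8 were higher (42.1%) and 11 lower (57.9%). Fosl1 (4.08 ± 0.15) and Myc (0.95 ± 0.09) were higher, and Mycn (-3.76 and -3.53 against 0.97 and 1.02, -4.64 ± 0.28) and Fos (-2.57) were lower; Mycn was lower still in null BM-MSC (-7.25). Of 15 BCL2 family genes 5 were higher (33.3%) and 8 lower (53.3%), with the death inhibitor Bcl2 at -2.65 and Mcl1, on chromosome 3, at 0.96.

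**Figure D4:**
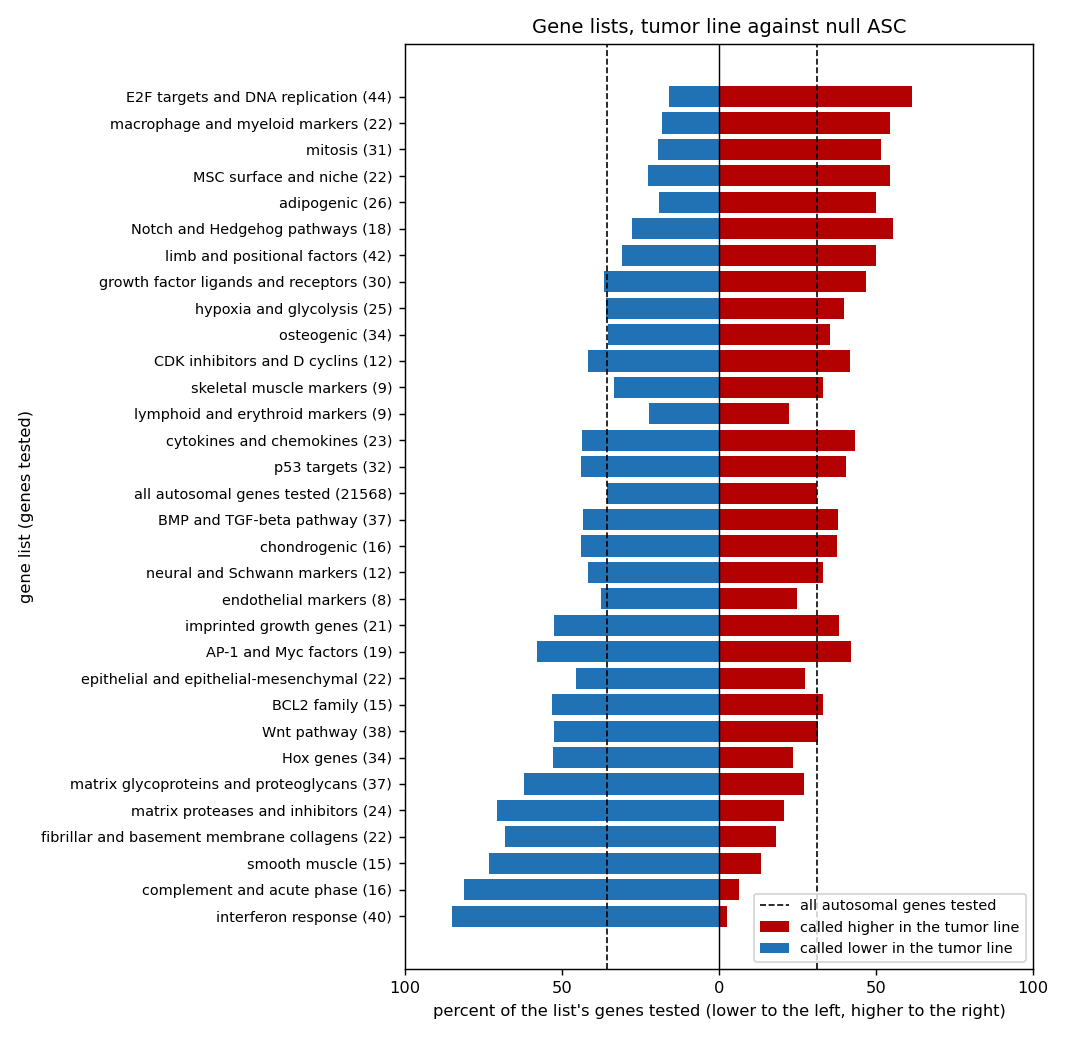
Percent of each list's measured genes called higher (red, to the right) or lower (blue, to the left) in the tumor line, with the number tested in brackets. Dashed lines mark the 31.1% higher and 35.5% lower of all 21568 genes. Interferon, complement, smooth muscle, collagen and protease genes have the longest bars to the left, and E2F targets the longest to the right.

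Markers of other cells were read because the tumor grew in a host. Of 22 macrophage and myeloid markers 12 were higher (54.5%) and 4 lower (18.2%), against 31.1% and 35.5% of all genes. Their median of 1.02 was 0.66 with dim signals at the lowest detected level. It was -0.07 over members well above background on all 10 arrays. The adaptor Tyrobp was at least 9.97-fold higher and lysozyme Lyz2 gave -1.81 and -1.65 against -4.69 and -5.22 (3.22 ± 0.29). Among genes that define the lineage, Ptprc (CD45) was well above background on 1 tumor line array and no null ASC array, Csf1r (-0.55 ± 0.07) and Itgam (-0.68 ± 0.12) were lower, and Adgre1 (-0.31 ± 0.18) and Cd68 (0.16 ± 0.09) were not called. When each gene's probes were averaged, Adgre1 was higher (0.80, adjusted p = 0.0143) and Itgam was not called (-0.23, adjusted p = 0.0640). The list's summed signal was 4.09 and 3.99 in the tumor line, 4.20 and 4.09 in null ASC and 4.61 to 5.10 on the other arrays, so neither tumor line array exceeded a null ASC array. Of 8 endothelial markers 2 were higher and 3 lower, of 9 lymphoid and erythroid markers 2 and 2 (4 lower without replicate 1 of the tumor line, and 4 with probes averaged), of 9 skeletal muscle markers 3 and 3, of 12 neural markers 4 and 5, and of 22 epithelial and transition genes 6 and 10. Cdh5 and Tek of endothelium, Myod1, Myog and Ckm of skeletal muscle, and Epcam of epithelium were not well above background on both arrays of any group. The part of such cells in any result was not tested.

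Chromosome 3 stood apart from every other autosome. Its 1139 genes had a median difference of 0.96, between 0.93 and 0.98 in the 4 pairs of single arrays but 0.63 with normexp and 0.34 without the filter on dim genes, while the medians of the other 18 autosomes ran from -0.41 on chromosome 19 to 0.32 on chromosome 12. On chromosome 3, 715 genes were higher (62.8%) and 138 lower (12.1%), against 29.3% and 36.8% of the 20429 genes elsewhere. The shift ran along the whole chromosome, with medians of 0.73, 0.98, 0.94, 1.01 and 1.01 in 5 successive blocks of its genes. It was larger among the 538 brighter genes (1.07) than among the 601 dimmer ones (0.56), where the same split gave -0.04 and -0.23 on other autosomes. It was present against null BM-MSC (0.69) and wild-type BM-MSC (0.70), and was 0.18 between null BM-MSC and null ASC, 0.13 between the wild-type marrow and fat groups and 0.00 between null and wild-type ASC. Chromosome copy number was not measured. Chromosomes 10 (-0.36), 2 (-0.34) and 9 (-0.31) had the lowest medians after chromosome 19.

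**Figure D5:**
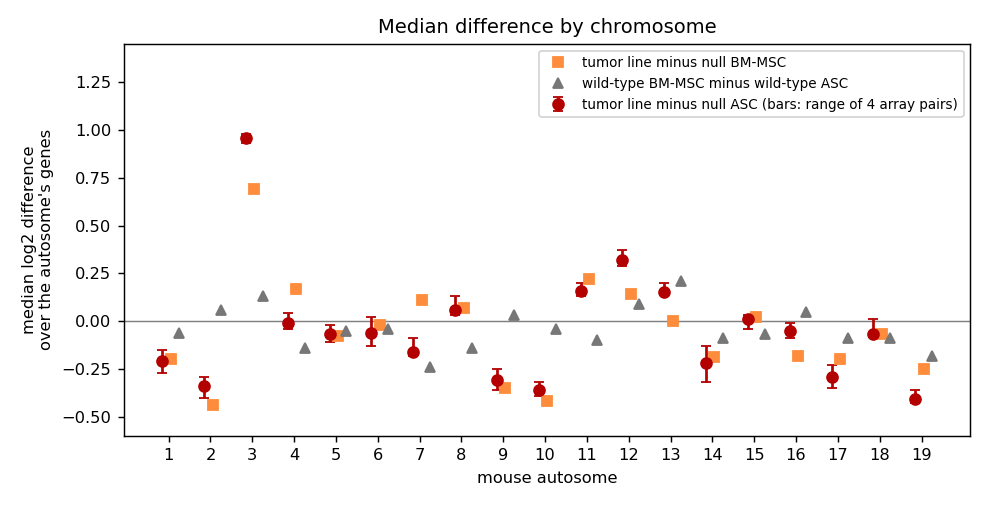
Median log2 difference over the genes of each autosome for the tumor line against null ASC (red circles, bars from the lowest to the highest of the 4 array pairs), the tumor line against null BM-MSC (orange squares) and wild-type BM-MSC against wild-type ASC (grey triangles). Chromosome 3 lies at 0.96 and 0.69 in the 2 tumor line comparisons and at 0.13 between wild-type cells.

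Genes whose tumor line difference departed most from the wild-type marrow difference were taken among those well above background in all 4 groups. In the first direction, Dcn, the collagen-binding proteoglycan decorin, was close in the tumor line and null ASC (8.56 and 8.58 against 7.93 and 8.05, 0.58 ± 0.07) but was at 2.06 in wild-type BM-MSC and 8.45 in wild-type ASC, so that the differences stood 6.97 ± 0.10 apart (adjusted p = 1.68e-07). Sema7a, Crabp1, Upp1 and the neurotrophic factor Artn (3.31 and 3.27 against -2.74 and -2.78) were high in the tumor line beyond the wild-type difference, and Syngr1, a vesicle protein, was lower in wild-type marrow than in fat cells (-3.96) and higher in the tumor line than in null ASC (2.42). In the other direction, Sfrp2, a secreted Wnt modulator, was 10.74 higher in wild-type marrow than in wild-type fat cells and -0.91 ± 0.21 in the tumor line against null ASC (-11.66 ± 0.29, adjusted p = 8.45e-07). Bmp4 gave 7.14 between wild-type cells and -2.41 in the tumor line, and the small proteoglycan Aspn gave 6.82 and -2.13. Actg2 (4.20 and -6.88) and Ccn5, a matricellular protein (4.25 and -5.37), were also marrow genes in wild-type cells that were low in the tumor line, and Gas6 (0.52 and -8.41) was nearly even between wild-type cells. For all 6 genes both null BM-MSC arrays were at 4.37 or above, higher than both tumor line arrays.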

How the data were processed

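Total RNA of 10 mouse cultures was labelled with Cy3 and read on 1-colour Agilent arrays, 1 per culture and 2 per group. The deposited scanner files hold spot intensity; per the file headers, the authors ran Feature Extraction 10.7.3.1, in which background is subtracted and dim spots carry surrogate values, so that dim levels have no order. The deposited series matrix holds values on what reads as a log2 scale, with array medians of 5.04 to 5.06, and was used as an alternative only; it correlated with the scanner values at r = 0.989 to 0.993. Limma is named in the submitters' processing notes, with its role not given in the sources used here. Probe coordinates are mm9.

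Outlier-flagged spots and control spots were left out, spots of a probe were averaged as log2 signal, and each array's 75th percentile over non-control spots was subtracted. Of 55681 probes 37 without a usable spot were dropped. Probes were named through RefSeq tables by accession (27214), symbol (3578), synonym (565) or letter case (41); the other 24246 carry the file's own name. Each gene was read from its probe of highest mean, and 22596 genes entered the tests, 21568 of them autosomal, because that probe passed the well-above-background flag on both arrays in 1 or more groups.

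Limma 3.58.1 in R 4.3.3 fitted all 5 groups together, with 5 residual and 1.35 prior degrees of freedom; tests were two-sided. The number of arrays, 2 per group, limits the precision, and p-values rest on how far duplicate cultures lay apart. The script was tested on simulated data. An "at least" fold sets the bright group's mean against the higher, per array, of the lowest signal well above background and the dim probe's own signal. Values after ± are SE. Chromosomes and gene lists were described without a test. The groups, the comparisons and the 32 gene lists were chosen with earlier results of these data known. Named genes were the 12 largest differences per direction, up to 8 bounded folds per direction, the 6 largest contrasts of differences per direction and up to 5 called members per direction of each list (any member in lists under 25), plus the cell type markers. Alternatives were quantile scaling, median centring, normexp with an offset of 50, dim signals at the lowest detected level, the series matrix, other filters, the mean of a gene's probes, only the arrays compared, a replicate block, an intensity trend, each array left out, and, chosen after seeing the data, leaving out chromosome 3. Some items are not reported here. Figures were drawn with matplotlib 3.10.9 and pandas 2.3.3.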

Additional observations from a re-analysis of the deposited data

Results flagged for a closer look

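The difference between the tumor line and null ASC was tested against the wild-type difference between BM-MSC and ASC, and 12311 autosomal genes had the 2 differences apart at an adjusted p under 0.05 in limma. Genes were ranked only if well above background on both arrays of all 4 groups, leaving out names that are only clones, accessions or gene models. Among these, the 6 with the largest excess were Dcn (6.97), Crabp1 (6.84), Sema7a (6.76), Artn (6.73), Upp1 (6.55) and Syngr1 (6.38), on the log2 scale. The 6 with the largest deficit were Sfrp2 (-11.66), Actg2 (-11.08), Ccn5 (-9.62), Bmp4 (-9.54), Aspn (-8.95) and Gas6 (-8.92). Genes dim in any of the 4 groups can have larger values, such as Rspo1 (11.09) and Ctla2a (-11.74). The tumor line arrays lay on their own slide and the wild-type and null ASC arrays on another, so that slide and group cannot be told apart in any of these values.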

How the results depend on the processing

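The number of genes called between the tumor line and null ASC stayed within 1.5 times the main count under every alternative, and between 12668 and 13178 with 1 of the 4 arrays left out (5982 to 6133 higher, 6563 to 7196 lower, 5574 to 5753 at least 2-fold). Counts of at least 2-fold differences went down with normexp, to 3594 for this comparison, 2342 for the wild-type difference and 3546 for the contrast of both, and over genes well above background on all 10 arrays to 3718 for this comparison and 2294 for the wild-type difference, where fewer genes were tested. The median of chromosome 3 was 0.99 with quantile scaling, 0.63 with normexp, 0.89 with dim signals at the lowest detected level, 0.34 without a filter and 0.92 when each gene's probes were averaged; the cause was not tested. All 40 genes named for the largest or bounded differences kept their direction and call under every alternative that tested them, 20 of them under the filter on all 10 arrays. When each gene's probes were averaged, Irf1 (-0.50, then not called), Cdkn1a (-0.77) and Adgre1 (0.80) changed sign. The median of the myeloid list was -0.07 over genes well above background on all 10 arrays. Replicate numbers were not read as pairs: deviations of same-numbered arrays correlated at -0.00717 between the tumor line and null ASC and from -0.122 to 0.116 over all pairs of groups. With a replicate block 14147 genes were called. Surrogate signals at background limit all dim values, and 2 arrays per group limit the rest.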
